A study of Mus musculus with 38 samples.

Results

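Fragments of the 5 arginine tRNAs were followed in the sperm of mice fed control or protein-restricted diets. The members are the tRNA-Arg names, tRNA-Arg-ACG, tRNA-Arg-CCG, tRNA-Arg-CCT, tRNA-Arg-TCG and tRNA-Arg-TCT, one for each anticodon and called by it below, under which small RNA reads matching the genome were counted, 5 of 54 tRNA isoacceptors listed. They were chosen by name and not by value. Small RNA was sequenced from the sperm of 38 male C57BL6/J mice from 21 litters. The CTCT group (10 mice) had dams and offspring on 20% protein throughout, and the CTPR group (9 mice) had control dams and an 8% protein diet from weaning at 21 days. The PRCT group (9 mice) had dams on 8% protein from mating to weaning and control diet afterwards, and the PRPR group (10 mice) was restricted in both periods. All mice were killed at 11 to 13 weeks. In 8 litters a CTCT and a CTPR mouse shared a dam, and in 9 litters a PRCT and a PRPR mouse did.

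Transfer RNAs carry amino acids to the ribosome and pair with codons through the anticodon, and sperm carry large amounts of their cleavage products, mostly pieces from the 5′ end of glycine and glutamate tRNAs. Arginine has 6 codons, more than most amino acids. The ACG, CCG and TCG tRNAs read the CGN codons, ACG after deamination of its first anticodon base, CCG the codon CGG and TCG mainly CGA. The CCT and TCT tRNAs read the AGG and AGA codons.

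RefSeq lists 24 mouse genes for these tRNAs (GRCm38.p6), with 6 copies for ACG, 3 for CCG and 5 each for CCT, TCG and TCT. Of the 24 copies, 8 lie on chromosome 13. By the GENCODE annotation of the same build, 18 copies are intergenic, 3 lie in introns (in 1700064H15Rik, Fmc1 and Aim2) and 3 overlap exons (Gm10616, Gm17494 and Hes7). The ACG, CCG, CCT and TCG copies are 73 bases long, and the TCT copies 74 to 87 bases, since genes for this tRNA can hold an intron. The gene sequence is shown for 1 copy of TCG, a CGN reader, and 1 copy of TCT, an AGA reader, with the anticodon in capitals, so that the part before it, from which 5′ fragments come, can be seen. They are the copies n-TRtcg5 in an exon of Gm10616, chr7:79466419-79466491 on the plus strand, and n-TRtct2 in an exon of Gm17494, chr3:122292948-122293032 on the minus strand, read from GENCODE transcripts at the positions RefSeq gives.
n-TRtcg5: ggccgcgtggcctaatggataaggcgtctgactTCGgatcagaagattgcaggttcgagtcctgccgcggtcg
n-TRtct2: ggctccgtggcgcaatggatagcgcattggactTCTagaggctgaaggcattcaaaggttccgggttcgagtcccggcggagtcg
In both genes the anticodon fills positions 34 to 36. Their first 30 bases match at 21 positions, with the first difference at position 4, so these copies differ in the part a 5′ fragment would hold. Copies of one anticodon can be near-identical, and the counts did not separate them. For the other anticodons no sequence is shown.

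The depth was 4465281 to 7612603 genome-matching reads per mouse. Levels are given as reads per 1000000 of these (RPM), not divided by length. The tRNA isoacceptors together took 2.75% to 24.7% of the genome-matching reads, with means of 9.57% in CTCT, 15.9% in CTPR, 12.2% in PRCT and 11.7% in PRPR. Shares are therefore also given, as the percent of the summed tRNA isoacceptor reads. The 5 arginine tRNAs held 256 to 7315 reads per mouse, with a median of 1728, and 0.0723% to 0.462% of the tRNA reads. The lowest counts were in CTCT mouse 07C3, with 8 TCG reads (95% Poisson interval 3.45 to 15.8) and 14 ACG reads (7.65 to 23.5). These intervals cover counting error only. PRCT mouse 59L1 stood apart, with arginine tRNA levels 3.65 to 10.2 times the median of the other PRCT mice, and results that rest on it are given with and without it.

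Among the 5 members, CCT was the most abundant, with a mean of 170.3 RPM over all mice, rank 18 of the 54 isoacceptors. CCG followed at 51.1 RPM (rank 31), then TCT at 47.7 (rank 32), TCG at 23.0 (rank 43) and ACG at 19.2 (rank 45). CCT exceeded CCG in 38 of 38 mice, with a median ratio of 3.11, and TCT exceeded TCG in 34. The other neighbours in this order were less separated: CCG exceeded TCT in 27 of 38 mice and TCG exceeded ACG in 25. In CTPR, CCG was above TCT in 3 of 9 mice and TCG above ACG in 3 of 9, against 8 of 10 for each pair in CTCT, a difference that was not tested. CCT supplied 39.7% to 65.4% of a mouse's arginine tRNA reads. CCG supplied 24.2% ± 9.99 (SD, n = 10) in CTCT, 14.7% ± 6.07 (n = 9) in CTPR, 18.8% ± 3.88 (n = 9) in PRCT and 18.1% ± 3.91 (n = 10) in PRPR.

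**Figure D1:**
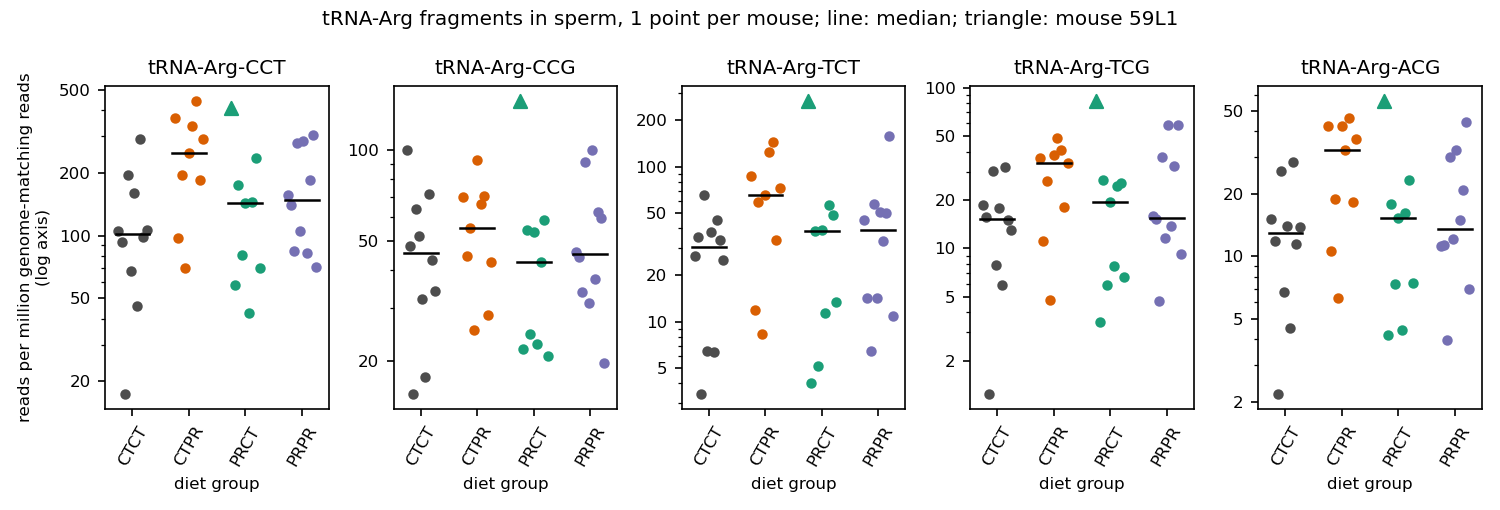
Level of each arginine tRNA by diet group in RPM, on a log axis, with 1 point per mouse and a line at the group median. The CTPR median of CCT, 249 RPM, is the highest of the 4 groups, and PRCT mouse 59L1 (triangle) is the highest PRCT mouse in all 5 panels.

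The first question was whether restriction after weaning alone moved these fragments. In CTPR the point estimates of all 5 members were above CTCT, and CCT, ACG and TCT passed an unadjusted threshold of P = 0.05. That is 3 of 5 members, against 35.2% of all 54 isoacceptors tested, all of those higher in CTPR. No member passed after Benjamini-Hochberg adjustment over the 54, by the edgeR quasi-likelihood test or by DESeq2. Unadjusted, DESeq2 also gave 3 of 5, against 18 of 54. The median log2 difference was 1.07 over the 5 members and 0.71 over all isoacceptors. Of the 49 isoacceptors of other amino acids, 16 passed the same unadjusted threshold, all higher.

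CCT, the AGG reader, ranged from 17.3 RPM in CTCT (median 102, highest 290.0) and from 70.2 RPM in CTPR (median 249, highest 444). The groups overlapped: 2 of 9 CTPR mice lay below the CTCT median and 3 of 9 above the highest CTCT mouse. The log2 difference in CCT level was 1.07 (SE 0.40, P = 0.0103, adjusted P = 0.0715 by edgeR).

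TCT, the AGA reader, had 3.41, 30.2 and 65.7 RPM as the lowest, median and highest CTCT values, and 8.38, 65.4 and 143 RPM in CTPR. The CTPR median of TCT lay just under the highest CTCT mouse. The log2 difference in TCT level was 1.23 (SE 0.57, P = 0.0360, adjusted P = 0.115 by edgeR). Leaving out any one of 6 mice (02A6, 07C3, 09H7, 35F1, 56I1 or 57P1) lost the TCT call, with P up to 0.0905, and so did leaving out the 4 mice 07C3, 35F2, 31A3 and 08G5 (1.11, P = 0.0722). Mouse 47I1, whose class totals like those of 35F2, 31A3 and 08G5 do not sum to its genome-matching reads, was then left out as well. TCT was at 1.36 (P = 0.0327) and 3 of 5 members passed again, against 16 of 54 isoacceptors. The CCT and ACG differences kept an unadjusted P under 0.05 in all 19 single-mouse omissions.

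Of the CGN readers, ACG had 2.17, 12.9 and 28.4 RPM in CTCT and 6.33, 32.4 and 46.3 RPM in CTPR. Its CTPR median lay above every CTCT mouse, while the lower CTPR mice fell inside the CTCT range. The log2 difference in ACG level was 1.08 (SE 0.43, P = 0.0155, adjusted P = 0.0715 by edgeR). Litter 47I, for which the diets of the pair are uncertain, bore on ACG: with its mice exchanged the difference was 0.83 (P = 0.0650).

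TCG had 1.24, 15.3 and 32.0 RPM in CTCT and 4.74, 33.9 and 48.4 RPM in CTPR, a log2 difference in level of 0.87 (SE 0.47, P = 0.0727, adjusted P = 0.159 by edgeR). CCG had 15.5, 45.6 and 100.0 RPM in CTCT and 25.3, 55.0 and 92.8 RPM in CTPR, and the highest mouse was in CTCT. Its log2 difference in level was 0.21 (SE 0.36, P = 0.562, adjusted P = 0.632 by edgeR). By codon family, 1 of 3 CGN readers and 2 of 2 AGA and AGG readers passed the unadjusted threshold, against 19 of 54 isoacceptors (35.2%). These are too few members to tell the codon families apart.

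The level differences between CTPR and CTCT depended on the scaling. TMM factors over the isoacceptors brought the median of all 54 from 0.71 to 0.013. With them CCT was 0.38 higher on the log2 scale (P = 0.0505), and CCG was at -0.55 (P = 0.00554), opposite in sign to its level without these factors. In this setting 4 of 54 isoacceptors passed unadjusted, all lower, and 0 after adjustment. With the litter as replicate block, 3 of 5 members again passed unadjusted, against 40.4% of 52 isoacceptors, at 0.80 for CCT (P = 0.00457), 0.76 for TCT (P = 0.00805) and 0.79 for ACG (P = 0.0102). In the same litters without the block, 0 of 5 passed, against 3 of 52 isoacceptors, CCT being at 0.76 (P = 0.0627).

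**Figure D2:**
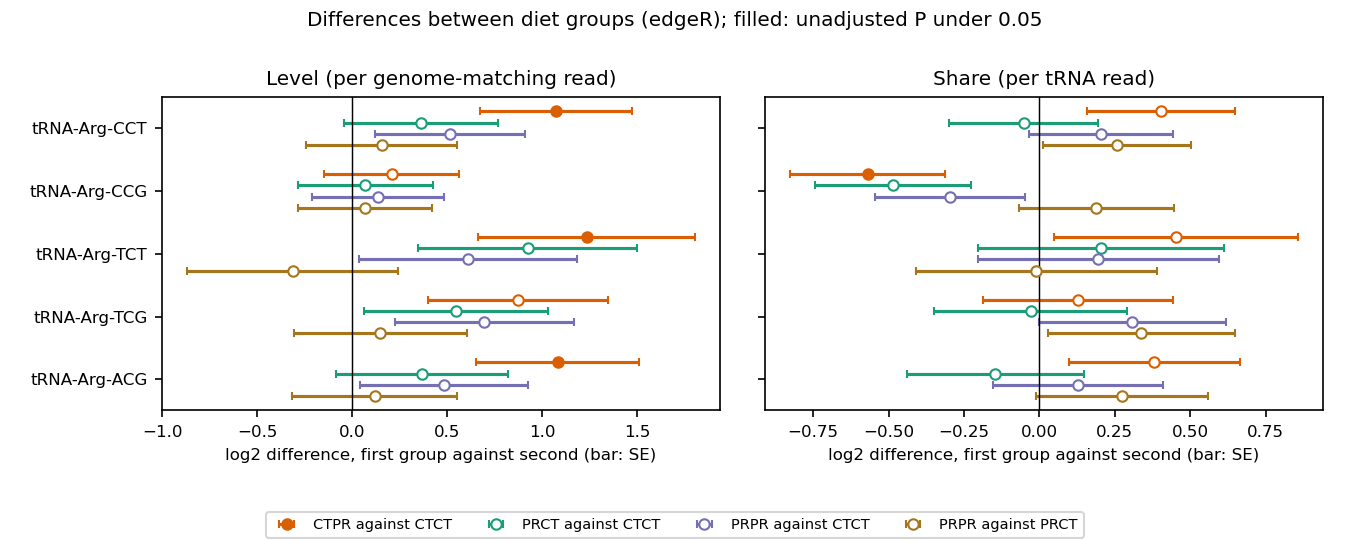
Log2 differences between diet groups for each arginine tRNA, as a level (left) and as a share of tRNA reads (right), with bars for the SE and filled points for an unadjusted P under 0.05. Against the CTCT mice, the CTPR level differences of CCT and TCT are 1.07 and 1.23 and that of ACG 1.08, and CCG lies at -0.57 on the share scale.

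The share of tRNA reads asks whether a member moved apart from the tRNA fragments as a whole. In CTPR against CTCT, 1 of 5 members passed the unadjusted threshold on this scale, against 3.7% of the 54 isoacceptors, and it was CCG, in the lower direction. No member passed after adjustment (smallest adjusted P = 0.642 by edgeR). DESeq2 gave the same member counts, 1 of 5 unadjusted, against 4 of 54 isoacceptors, and 0 adjusted.

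The CCG share had 0.0257%, 0.0460% and 0.157% as its lowest, median and highest values in CTCT, and 0.0252%, 0.0292% and 0.0605% in CTPR. The groups overlapped: 6 of 9 CTPR mice lay below all but 2 of the CTCT mice, and CTCT mouse 57P3 was far above the rest, the next highest CTCT mouse being at 0.0642%. The log2 difference in CCG share was -0.57 (SE 0.26, P = 0.0318, adjusted P = 0.642 by edgeR).

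Without mouse 57P3 the CCG share difference was -0.24 (P = 0.279), and the unadjusted call was lost in 7 of 19 single-mouse omissions. With the litter as block it was -0.57 (P = 0.0131), where 5.77% of 52 isoacceptors passed. The CCT share was 0.120% ± 0.0475 (SD, n = 10) in CTCT and 0.159% ± 0.0609 (n = 9) in CTPR. Its log2 difference was 0.40 (SE 0.24, P = 0.107, adjusted P = 0.642 by edgeR). TCT, ACG and TCG share differences were 0.45, 0.38 and 0.13, each within 2 SE of 0.

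**Figure D3:**
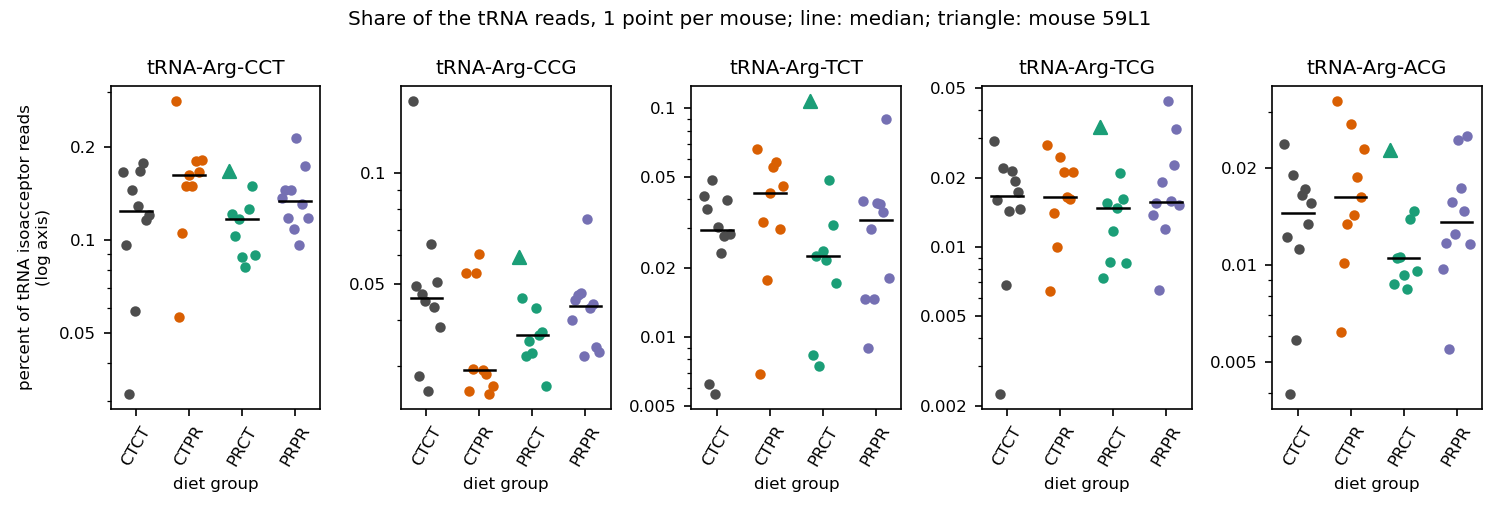
Share of each arginine tRNA among the tRNA isoacceptor reads by diet group, in percent on a log axis, with 1 point per mouse, a line at the group median and a triangle for PRCT mouse 59L1. The CTPR median of CCG, 0.0292%, is the lowest of the 4 groups, and the highest CCG point, 0.157%, is CTCT mouse 57P3.

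The next comparison asked about restriction before weaning alone. In PRCT against CTCT, 0 of 5 members passed the unadjusted threshold as a level, against 1.85% of the 54 isoacceptors, by edgeR and by DESeq2. CCT had 42.7, 144 and 410 RPM as its lowest, median and highest PRCT values, TCT 4.00, 38.5 and 266 RPM, and CCG 20.7, 42.3 and 146 RPM. The highest value of each was mouse 59L1, and the next highest PRCT values were 236, 56.4 and 58.5 RPM. PRCT medians of TCG and ACG were 19.3 and 15.3 RPM.

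The log2 differences in level ran from 0.069 for CCG (SE 0.36) to 0.92 for TCT (SE 0.58, P = 0.116, adjusted P = 0.951 by edgeR). Of these directions, 4 of 5 rested on mouse 59L1. Without it CCT, at 0.36 with all mice, was at 0.010 (P = 0.980), TCT at -0.080 (P = 0.882), TCG at -0.070, ACG at -0.16 and CCG at -0.35, while the median of all isoacceptors went from 0.012 to -0.11.

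As shares, 0 of 5 members passed in PRCT against CTCT by edgeR, against 14.8% of the 54 isoacceptors. By DESeq2 1 of 5 passed, against 10 of 54. All isoacceptors called by either were lower in PRCT. The member called by DESeq2 was CCG, at -0.50 (P = 0.0497). By edgeR the CCG share difference was -0.49 (SE 0.26, P = 0.0662, adjusted P = 0.275), with a PRCT median of 0.0366%. Without mouse 59L1 it was -0.60 (P = 0.0341). The other members lay between -0.15 and 0.21, where the median of all isoacceptors was -0.33.

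In PRPR, restricted before and after weaning, 0 of 5 members passed the unadjusted threshold against CTCT as a level or as a share, by edgeR or DESeq2, against 0% of the 54 isoacceptors on either scale. CCT had 70.7, 149 and 304 RPM as its lowest, median and highest PRPR values, and a log2 difference in level of 0.52 (SE 0.39, P = 0.197, adjusted P = 0.876 by edgeR). TCT had 6.48, 39.1 and 157 RPM, and CCG 19.7, 45.1 and 99.9 RPM. Medians of TCG and ACG in PRPR were 15.6 and 13.6 RPM, close to the CTCT medians, while the means were higher, 25.6 RPM against 15.7 RPM for TCG. The log2 differences in level were 0.70 for TCG (SE 0.47, P = 0.147, adjusted P = 0.876 by edgeR), the highest of the 5, and 0.48 for ACG.

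The member median was 0.52 in PRPR against CTCT and that of all isoacceptors 0.23. This comparison shares its CTCT mice with the previous ones. As a share, CCG was at -0.30 (SE 0.25, P = 0.238, adjusted P = 0.862 by edgeR).

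Restriction after weaning in offspring of restricted dams was examined in PRPR against PRCT. As a level, 0 of 5 members passed, against 0% of the 54 isoacceptors, and as a share 0 of 5, against 1.85%, and DESeq2 also gave 0 of 5 on both scales. Log2 level differences ran from -0.31 for TCT (SE 0.56) to 0.15 for CCT (SE 0.40). The TCT estimate changed sign with the litter as block (0.20) and without mouse 59L1 (0.69, P = 0.197). Without that mouse all 5 level estimates were positive, from 0.48 for CCG to 0.77 for TCG (P = 0.0963), with 0 of 5 past the threshold. The member median was then 0.64 in place of 0.12, and that of all isoacceptors 0.41 in place of 0.15.

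Whether the post-weaning difference depended on the dam's diet was tested as the CTPR-to-CTCT difference minus the PRPR-to-PRCT difference. On the level scale 0 of 5 members passed unadjusted, by edgeR or DESeq2, against 3.7% of the 54 isoacceptors. TCT had the highest estimate, 1.55 (SE 0.80, P = 0.0582, adjusted P = 0.496 by edgeR), which was 0.57 with the litter as block (P = 0.263) and 0.54 without mouse 59L1 (P = 0.455). Leaving out that mouse took the member median from 0.92 to 0.44 and that of all isoacceptors from 0.51 to 0.24.

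On the share scale 1 of 5 passed unadjusted by edgeR and by DESeq2 and 0 after adjustment. Unadjusted, 5.56% of the 54 passed by edgeR and 4 of 54 by DESeq2. It was CCG, at -0.76 (SE 0.36, P = 0.0423, adjusted P = 0.645 by edgeR). With the litter as block the CCG value was -0.66 (P = 0.0121 by edgeR), where 9 of 54 isoacceptors passed, all lower. Without mouse 57P3 it was -0.43 (P = 0.165), and 16 of 38 single-mouse omissions lost the call.

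Littermates gave a comparison within dams. In the 8 litters with both mice, CCT level was higher in the CTPR mouse in 7, with a mean log2 ratio of 0.79 ± 0.79 (SD, n = 8). By the exact sign-flip permutation test, two-sided, CCT gave P = 0.0391 (adjusted P = 0.203, the smallest possible P being 0.00781). That is 1 of the 2 members with at least 100 reads in every mouse, against 23.1% of 26 isoacceptors tested. CCG level was higher in 5 of 8 litters, with a mean log2 ratio of 0.024 ± 0.68 (exact permutation P = 0.945).

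Litter 45L was lower in CTPR for all 5 members, CCT being at 185 RPM in its CTPR mouse and 290.0 RPM in its CTCT mouse. Litters 35F and 57P had the highest CCT ratios, from 98.9 to 337 RPM and from 106 to 367 RPM. ACG was higher in the CTPR mouse in 7 of 8 litters and TCG and TCT in 6 of 8, with counts too low for the read minimum of the test. The CCT call was lost without litter 47I, in which the diets of the 2 mice are uncertain. The CCT mean was then 0.86, higher than with it, and the smallest possible P rose to 0.0156 (exact permutation P = 0.0625). With the 2 mice exchanged the CCT mean was 0.71 (exact permutation P = 0.0703).

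As a share, CCG was lower in the CTPR littermate in 6 of 8 litters, with a mean log2 ratio of -0.57 ± 0.60 (exact permutation P = 0.0469, adjusted P = 0.244, against 19.2% of 26 isoacceptors). The lowest ratio was in litter 57P, at -1.55, and litters 47I and 53M went the other way, at 0.37 and 0.047. CCT share was higher in 5 of 8 litters, at 0.20 ± 0.32 (exact permutation P = 0.133).

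In the 9 litters with both a PRCT and a PRPR mouse, CCT level was higher in the PRPR mouse in 7 (mean 0.21 ± 0.72, exact permutation P = 0.430) and CCG in 6 (0.11 ± 0.76, exact permutation P = 0.707). That is 0 of 2 members by this test, against 3.85% of 26 isoacceptors, and the edgeR fit with the litter as block also gave 0 of 5, against 1.92% of 52 isoacceptors. Litter 59L had the lowest ratio of each member, from -1.39 for CCT to -2.55 for TCT, since its PRCT mouse is 59L1. Without that litter the CCT mean was 0.41 (exact permutation P = 0.0234, adjusted P = 0.203). In the edgeR fit of PRPR against PRCT without mouse 59L1, 52 of 54 isoacceptors had positive level estimates. As a share, 0 of 2 members passed in these 9 litters, against 0% of 26 isoacceptors, with means of 0.19 for CCT (exact permutation P = 0.117) and 0.089 for CCG (exact permutation P = 0.465). Without litter 59L the CCT share mean was 0.25 (exact permutation P = 0.0469, adjusted P = 0.474). Omitting this litter was chosen after seeing the data, and no count over the 26 isoacceptors is given for it here.

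**Figure D4:**
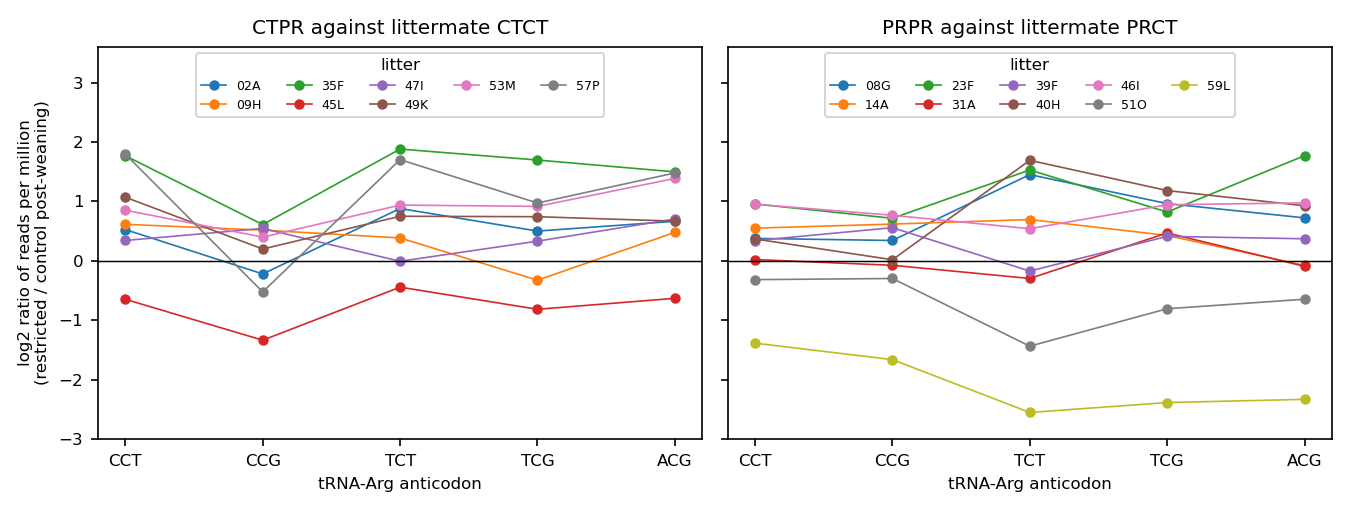
Log2 ratio of RPM between the post-weaning restricted mouse and its control-diet littermate, for each arginine tRNA, with 1 colour per litter and lines joining the values of a litter. On the left CCT is above 0 in 7 of 8 litters, and on the right litter 59L is the lowest for all 5 members.

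The 5 members differed in which part of the tRNA their reads came from. Over all tRNA isoacceptors summed, the 5′-end counts came to a mean of 85.2% of the reads per mouse. By name the end counts are less certain, since for some tRNAs they exceed the tRNA's own count, as for Gly-CCC in 38 of 38 mice, while Gly-GCC, the most abundant, had 9.26%. The 5′-end and 3′-end counts of the arginine tRNAs never exceeded their own counts, but whether reads were divided among names in another way there was not tested. For the arginine tRNAs, pooled over all mice, 5.24% of 76566 reads carried the 5′-end name, 7.48% the 3′-end name and 87.3% neither. CCG had 31.0% of its reads at the 5′ end, 3820 of 12325, which is 95.2% of all arginine 5′-end reads.

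CCT, although the most abundant, had 18 reads at the 5′ end of 41830, in 6 mice. TCT had 1.29% at the 5′ end, ACG 0.317% and TCG 0.0529%. Reads at the 3′ end made up 19.3% of ACG, 16.4% of TCG and 13.5% of TCT reads, against 4.51% of CCG and 4.10% of CCT. A further listing of ends with the added CCA held 3668 genome-matching arginine reads. In 2 cases, ACG in mouse 09H5 (52 against 40 reads) and TCT in mouse 31A6 (85 against 75), it exceeded the member's own count. It was therefore kept out of the shares by end, and the 3′-end shares leave these ends out. Reads ending in CCA that did not match the genome were also left out, 13721 over the 5 members, against 5729 counted 3′-end reads. For TCT they numbered 6854, against 1619 counted 3′-end reads. The shares by end therefore describe genome-matching reads only.

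**Figure D5:**
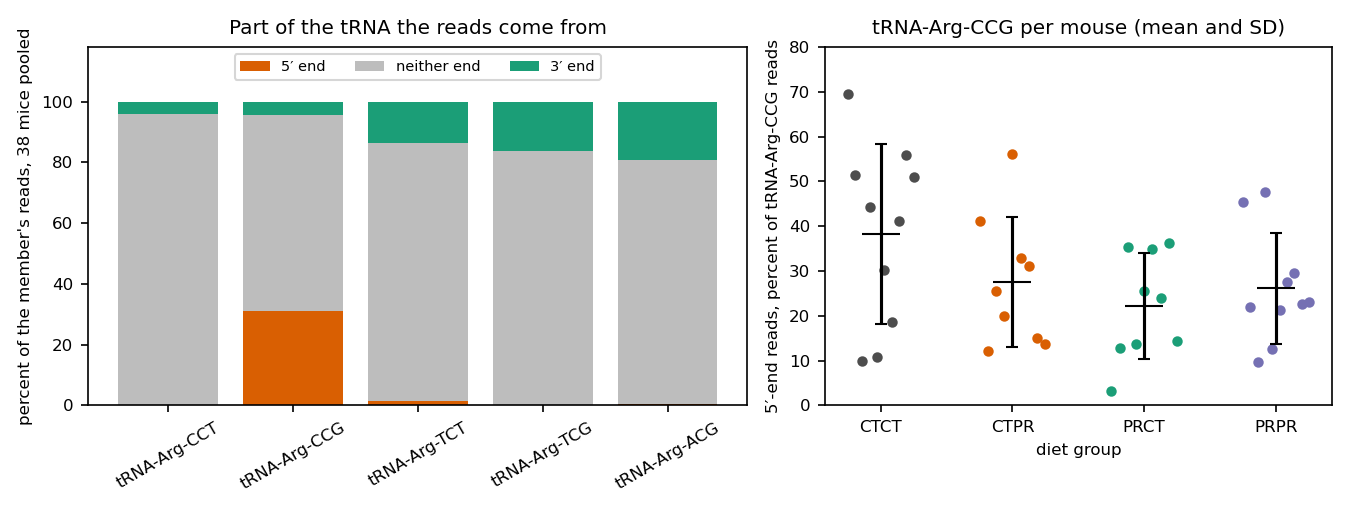
Left, percent of each arginine tRNA's genome-matching reads listed at the 5′ end, at the 3′ end or at neither, with all 38 mice pooled. Right, 5′-end reads as a percent of CCG reads in each mouse, with the group mean and SD, where CTCT has the highest mean, 38.3%, and the groups overlap.

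The 5′-end share of CCG was 10.0%, 42.7% and 69.5% as the lowest, median and highest value in CTCT, 12.2%, 25.6% and 56.1% in CTPR, 3.25%, 23.9% and 36.2% in PRCT, and 9.63%, 22.8% and 47.6% in PRPR. The 4 groups overlapped widely. The CTCT mean was 38.3% ± 20.2 (SD, n = 10) and the PRCT mean 22.2% ± 11.9 (n = 9), a difference of -16.1 percentage points (exact permutation P = 0.0532, adjusted P = 0.292). Without mouse 59L1 it was -13.7 points (exact permutation P = 0.100). The highest CTCT value, 69.5%, was that of mouse 57P3 (next 55.9%), which the comparisons with CTCT given here include. CTPR differed from CTCT by -10.7 points (exact permutation P = 0.202), and in littermates by -13.1 points (exact permutation P = 0.0625).

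PRPR differed from CTCT by -12.1 points (permutation P = 0.121) and from PRCT by 3.91 points (exact permutation P = 0.489). CCT, the other member with enough reads, had 5′-end shares of at most 0.412% and gave no P under 0.05. Of 2 members, 0 passed the unadjusted threshold by the permutation test in CTPR against CTCT (13.6% of 22 isoacceptors did), in PRCT against CTCT (13.6%), in PRPR against CTCT (9.09%) or in PRPR against PRCT (4.55%).

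The 5 shares did not vary as one. Over the 38 mice, which share their libraries and the summed denominator, the Spearman correlations of log2 share between ACG, CCT, TCG and TCT were 0.64 to 0.89. CCG correlated with these 4 at 0.19 to 0.44. The isoacceptors of other amino acids most like ACG were Cys-GCA (0.81) and Met-CAT (0.75), and the same pair led for CCT (0.69 and 0.77). TCG was most like Ala-TGC (0.72) and Cys-GCA (0.70), and TCT most like Ala-TGC (0.68) and Gly-GCC (0.66). CCG was instead most like Lys-CTT (0.62) and Leu-TAG (0.61). The lowest correlation was with Glu-CTC for ACG, CCT, TCG and TCT (-0.62 to -0.76), and with Glu-TTC for CCG (-0.32).

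Marker miRNAs of the cells a sperm sample can hold moved with these values. Spermatogenic markers (mir-34b and mir-34c, the mir-449 family and mir-191) were detected for 5 of 6, mir-449b being at 0. Their summed level was 36.2 to 1066 RPM in CTCT (median 424), 132 to 1688 RPM in CTPR (967), 217 to 896 RPM in PRCT (506) and 171 to 1620 RPM in PRPR (440). The sum of the epididymal markers, the mir-200 family (5 of 5 detected), was 38.9 to 1294 RPM in CTCT (median 525.5), 34.2 to 2227 RPM in CTPR (1044), 132 to 1043 RPM in PRCT (392) and 96.9 to 1298 RPM in PRPR (451). Smooth muscle markers, among them mir-143 and mir-145a (6 of 6 detected), summed to 63.5 to 3276 RPM in CTCT (median 1549), 71.6 to 8575 RPM in CTPR (2606), 386 to 3443 RPM in PRCT (1270) and 249.7 to 3548 RPM in PRPR (1152). Blood markers, among them mir-451a (6 of 6 detected), summed to 5.73 to 36.7 RPM in CTCT (median 26.3), 7.75 to 93.3 RPM in CTPR (36.4), 4.28 to 37.6 RPM in PRCT (22.9) and 6.94 to 64.1 RPM in PRPR (20.0). Like CCT, each of the 4 marker sums had its highest median in CTPR.

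Over the 38 mice the spermatogenic sum correlated with the levels of CCT, TCT, ACG and TCG at Spearman 0.89 to 0.90 and with CCG at 0.66, both measures being divided by the same genome-matching reads. With the shares it was 0.67 to 0.81 for these 4 and -0.00098 for CCG. The other 3 marker sums correlated with the levels of the 5 members at 0.50 to 0.83 and with the shares of CCT, TCT, ACG and TCG at 0.52 to 0.82, but with the CCG share at 0.0058 to 0.072. Their part in the diet differences was not tested, and in bulk sperm fewer cells of a type and less RNA per cell cannot be told apart.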

How the data were processed

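The authors sequenced sperm small RNA and annotated it with the SPORTS pipeline against mm10 and tRNA, miRNA, piRNA and rRNA databases. The aligner settings and database versions are not given in the sources used here. They deposited read counts per class and name for each mouse, not normalized. Groups were taken from the GEO labels, and the labels and a table of mice give the diets of the litter 47I pair the other way round.

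Every tRNA isoacceptor with a genome-matching read, 54 in all, was tested in R 4.3.3 with edgeR 4.0.16 (glmQLFTest), all 4 groups in 1 fit, with the genome-matching reads (level) or the summed isoacceptor reads (share) as library size, Benjamini-Hochberg over the 54. The SE is the size of the log2 difference over the square root of F. DESeq2 1.42.0 was an alternative. End shares and littermates were tested by permutation of mice or sign-flips of litters, exact with a group under 10, for isoacceptors with at least 100 reads in every mouse. For the end shares, isoacceptors whose 5′-end count exceeded their own count in any mouse were left out, a criterion chosen after seeing the data, which left 22 of 26. Python 3.11.15, numpy 2.4.6, scipy 1.17.1 and pandas 2.3.3 were used.

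Littermates share a dam, which pairs them. Their deviations from the group means correlated at 0.47 to 0.83 for levels and 0.12 to 0.93 for shares. On simulated data for CTPR against CTCT (54 isoacceptors, 10 changed), 31% of log2 changes of 1 and 98% of changes of 2 were recovered after adjustment. Class totals differed from the genome-matching reads by -1241147 to 789615 reads in 4 mice (08G5, 31A3, 35F2 and 47I1). In PRCT mouse 31A3 the tRNA class total was 352056 reads, while its isoacceptors, the denominator of its shares, summed to 469889. The alternative without incomplete mice left out 07C3, which has no such gap, in place of 47I1, and a further one, chosen after seeing the data, left out all 5. The members and lists were chosen with earlier results of these data known. Named were all 5 members and, for each, the 2 isoacceptors of other amino acids with the highest correlation of log2 share. No 2 mice of a group had counts alike within sampling noise.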

Additional observations from a re-analysis of the deposited data

Results flagged for a closer look

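In 10 of 44 groups of 9 or 10 mice tested for a mouse far from the rest, 1 mouse stood apart. Chance gives about 1 in 20 for independent, normally distributed values. Here the values were not log-transformed and the 44 tests share mice and counts, so an excess over that rate was not tested. PRCT mouse 59L1 accounted for 6 of them: TCT level 266 RPM (next 56.4) and share 0.108%, TCG level 82.9 RPM, ACG level 56.2 RPM and share 0.0229%, and CCG level 146 RPM. PRPR mouse 40H3 had a TCT level of 157 RPM (next 57.1) and a TCT share of 0.0895%. CTCT mouse 57P3 had a CCG share of 0.157% (next 0.0642%), and PRPR mouse 36K3 one of 0.0752% (next 0.0475%).

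The estimated post-weaning difference in CCG share differed between offspring of control and of restricted dams by -0.76 on the log2 scale (unadjusted P = 0.0423, adjusted P = 0.645 by edgeR). Of the 54 isoacceptors, 3 passed the same unadjusted threshold, all lower. Without CTCT mouse 57P3 the CCG value was -0.43 (P = 0.165 by edgeR), and 16 of 38 single-mouse omissions lost the call.

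Reads listed by name as ending in CCA that did not match the genome, which no comparison used, numbered 13721 over the 5 arginine tRNAs, with a median of 338 and a highest value of 954 per mouse, and were present in 37 of 38 mice. TCT held 6854 of them, TCG 2230, ACG 1864, CCG 1420 and CCT 1353. Why these reads or mice stand apart was not tested.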

How the results depend on the processing

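The 3 of 5 members called in CTPR against CTCT on level became 1 with TMM factors (CCG, lower, while CCT, ACG and TCT were no longer called) and 0 in the litters with both mice and no block. It was 2 with the older edgeR method (TCT lost), with 47I1 and 47I2 exchanged (ACG lost) and without 07C3, 35F2, 31A3 and 08G5 (TCT lost). It was 3 without these 4 and 47I1, and 4 without mouse 59L1. The count was 2 to 4 over single-mouse omissions. Over all isoacceptors, 19 of 54 were called in the main fit, 4 with TMM factors and 3 of 52 in the litters with both mice and no block. Of the 54, the older method called 18, the exchange 14, the omission of 4 mice 12, of these and 47I1 16, and of 59L1 21. Calls of 0 became 1 without litter 47I in PRCT against CTCT (2 of 54 isoacceptors) and in the post-weaning difference by dam's diet (5 of 54), TCT in both. On share, the 1 call (CCG) in CTPR against CTCT became 0 in litters with both mice without block (0 of 52 isoacceptors) and without litter 02A (2 of 54). In the difference by dam's diet it became 0 without litter 02A (3 of 54). Both were 0 to 1 over single-mouse omissions. In PRCT against CTCT the share count of 0 became 1 (CCG) by DESeq2 (10 of 54 isoacceptors), with 47I1 and 47I2 exchanged (11 of 54), and without mouse 59L1. Exchanging 47I1 and 47I2 also gave 1 call on 5′-end share in that comparison, and 0 in CTPR littermates, as did leaving litter 47I out. PRPR littermates gave 1 without litter 59L. For the share count without mouse 59L1 and for these changes in 5′-end share and littermates, no count over all isoacceptors is given here. They therefore cannot be set against a background.

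Signs changed as follows (log2, none past the threshold but the first). With TMM factors CCG level was -0.55 in CTPR (P = 0.00554), -0.15 in PRCT, -0.20 in PRPR, -0.047 in PRPR against PRCT and -0.50 in the difference by dam's diet. Without mouse 59L1, levels in PRCT against CTCT were -0.16 for ACG, -0.35 for CCG, -0.070 for TCG and -0.080 for TCT, and CCG in the difference by dam's diet -0.28. TCT in PRPR against PRCT was 0.69 as level and 0.52 as share, TCT share in PRCT -0.32, and ACG and TCT share in the difference by dam's diet -0.092 and -0.065. In litters with both mice and no block, CCG level was -0.013 and TCG share -0.042 in CTPR, and CCG and TCG level -0.065 and -0.034 in PRPR against PRCT. With the litter as replicate block, TCT in PRPR against PRCT was 0.20 as level and 0.13 as share, TCG share in CTPR -0.057, and CCG level by dam's diet -0.094. Against the fits over all mice the block changed no call. In the litters with both mice it raised the CTPR count from 0 to 3 of 5 on level and from 0 to 1 on share. Over all isoacceptors that count went from 3 to 21 of 52 on level and from 0 to 3 on share. With 47I1 and 47I2 exchanged, CCG level was -0.016 in PRCT and -0.031 by dam's diet, ACG share by dam's diet -0.067, CCT 5′-end share in CTPR -0.00946 and in PRPR -0.00444 points, and the CCG littermate ratio -0.11. Without litter 47I these last were -0.00641 points in CTPR and -0.050, and TCG share in PRCT 0.045. DESeq2 gave a TCT share of 0.024 in PRPR against PRCT. CCT 5′-end share without 07C3, 35F2, 31A3 and 08G5 was -0.00516 points in CTPR and -0.00300 in PRPR, and without mouse 57P3 -0.00208 in PRPR. The causes were not tested.

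Of 129 counts recomputed other than by leaving out 1 mouse, 115 stayed within 1.5 times. These include counts that stayed at 0 and changes from 3 to 2 or 4, so they do not measure how stable a call is. A minimum of 500 reads in every mouse left no member to test. Depth limits TCG and ACG most, with counts down to 8 and 14. The alternatives without 59L1, 57P3, litters 47I and 59L among littermates, or unpaired litters, the block in the difference by dam's diet and the omission of single mice were chosen after seeing the data.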
